A study of Mus musculus with 4 samples.

Results

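The 31 genes described here encode proteins that prepare and carry out DNA replication at the G1/S boundary and in S phase. They were taken by symbol from a list of G1/S and DNA replication genes, and all 31 were found among the 53715 gene IDs of the table. All 31 also passed the filter on low counts, which left 14185 genes to test. They were read in iNKT cells (invariant natural killer T cells), which see lipids on CD1d through a semi-invariant receptor. The cells were sorted from mouse thymus by a viability dye, a CD1d tetramer and TCRβ. One group of 2 libraries came from WT C57BL/6 mice. The other 2 libraries came from C57BL/6 mice labelled Mettl3fl/flCD4-cre, in which Cre recombinase under Cd4 control deletes a floxed Mettl3 gene in T lineage cells from the stage at which Cd4 is first expressed; they are called Mettl3 knockout below. All mice were 6 to 8 weeks old. Nothing in the labels ties each library to its own animal, and the p-values therefore reflect spread that may be purely technical.

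DNA is replicated once per cell cycle from origins that are licensed in G1, when the origin recognition complex, CDC6 and CDT1 load the MCM helicase onto DNA. Cyclin E with CDK2 and the E2F transcription factors then drive entry into S phase, CDC45 and GINS turn the helicase on, and polymerases, the sliding clamp and ligase copy and seal the strands. Developing iNKT cells divide after positive selection in the thymus and most become quiescent as they mature. METTL3 methylates adenosine in mRNA to give m6A, and the study set out to learn what its loss does to iNKT cell development and function.

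The libraries held 24374587 to 28316016 counts. Mettl3 itself was at 92.2 and 123.6 CPM in WT and at 78.1 and 91.4 CPM in the knockout, where CPM is the count scaled to library size by TMM. Its log2 fold change was -0.35 (SE 0.188, edgeR adjusted p = 0.357), and since reads from exons outside the deleted part still count, this does not show whether the allele was deleted. Of 11 T and iNKT cell markers, which summed to 5302 and 5991 CPM in WT and 5649 and 5577 CPM in the knockout, 2 rose (Cd5 and Slamf6, log2 fold changes 0.68 and 0.80, edgeR adjusted p = 0.0275 and 0.0358) and 1 fell (Cd44, -1.14, adjusted p = 0.00746). In bulk libraries, more cycling cells and more RNA per cycling cell cannot be told apart.

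None of the 31 genes passed the test, and the 8 with the smallest p all had higher values in the knockout. In the quasi-likelihood test of edgeR, adjusted by Benjamini-Hochberg over all tested genes, 0 of 31 were called, where 2.59% of all tested genes were (1.09% higher and 1.51% lower). At an unadjusted p under 0.05, 8 were higher and 0 lower, against 10.5% and 9.69% of all tested genes; leaving out Mettl3 knockout replicate 1 made the first count 5, and leaving out replicate 2 made it 3. The DESeq2 test called 4 of the 31, all higher (Tk1, Cdk2, Uhrf1 and Rrm1), where it called 4.67% of tested genes higher and 4.73% lower, and limma voom called 0 where it called 1.99%. The log2 fold change was positive in 20 and negative in 11 genes, with a median of 0.22 against 0.016 over all tested genes, of which 51.3% were positive. In 14 genes both knockout libraries lay above both WT libraries (25.4% of all tested genes did), in 5 both lay below (24.9%), and in 12 the genotypes overlapped. Summed over the 31 genes the level was 3078 and 3066 CPM in WT and 3673 and 3575 CPM in the knockout, so that the summed level did not overlap. Most of this sum came from the MCM2-7 helicase genes, at 1757 and 1699 CPM in WT and 2088 and 1874 CPM in the knockout. By role, the sums of the helicase activation genes and of the polymerase, clamp and clamp loader genes overlapped, and those of the other roles did not.

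The 95% intervals show how large a change these libraries leave possible. For 21 of the 31 genes the interval lay within 2-fold in either direction, as it did for 43.3% of all tested genes, and for 9 it lay within 1.5-fold (17.7%). A missing call is thus not evidence of equal levels.

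**Figure D1:**
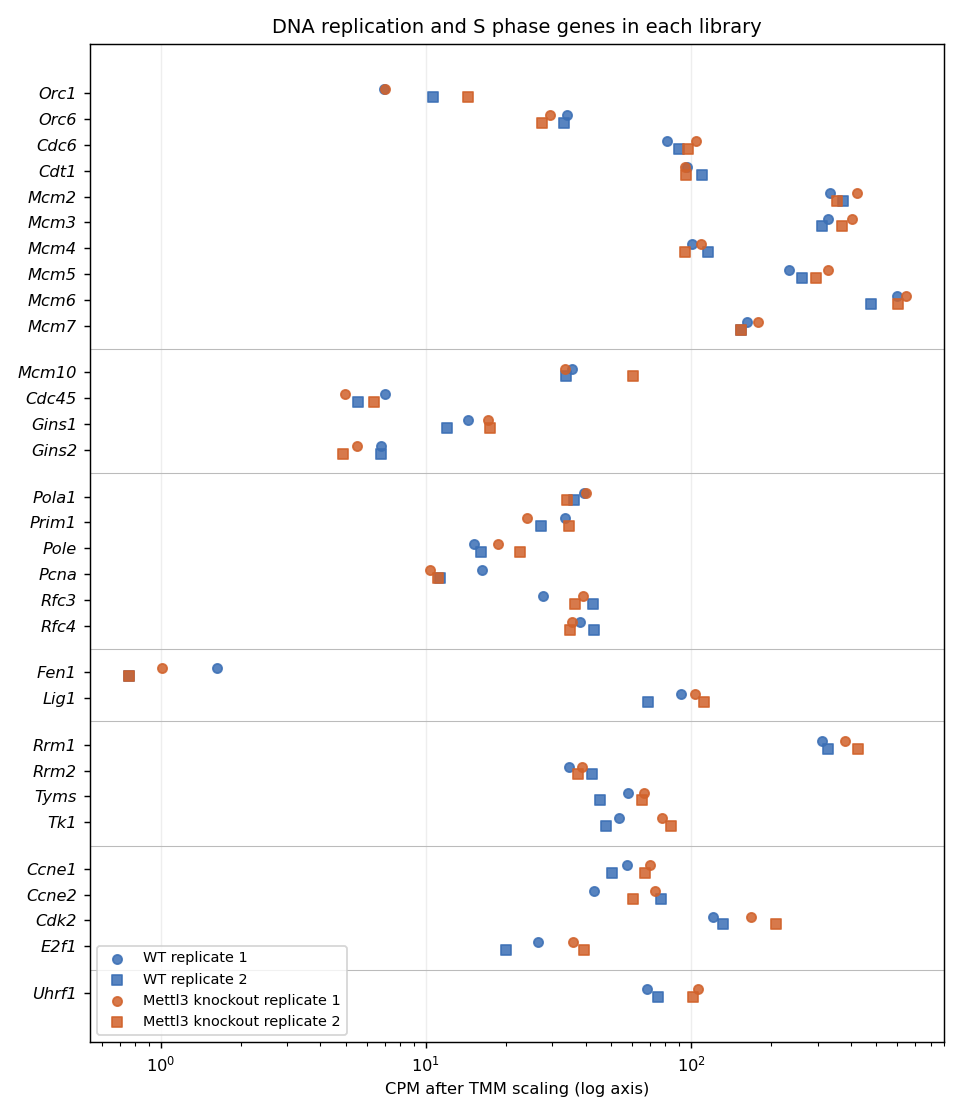
Level of each listed gene in each library, in CPM after TMM scaling on a log axis; circles are replicate 1, squares replicate 2, blue WT and orange Mettl3 knockout, and lines separate the roles. Mcm6 was highest, at 478.8 to 644.3 CPM, and Fen1 lowest, at 0.756 to 1.64 CPM.

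Promoter sequence is shown first because E2F sites are the textbook feature that ties these genes together. RefSeq promoter windows of 300 bases (250 before to 50 after a start site, GRCm38.p6) were present for 26 of the 31 genes, in 31 windows. They were searched on both strands for the E2F site in its 4 forms TTTCCCGC, TTTCGCGC, TTTGCCGC and TTTGGCGC. Their reverse complements can overlap each other, since forms ending in GCGC share that palindrome. A match was present in 12 of 31 windows (38.7%), of 12 genes, against 3.9% of 12602 windows of tested genes and 2.3% of all 32851 windows. Windows of other replication genes held one in 29.7% of cases and those of mitosis and G2/M genes in 5.9%, or 1 of 17. The CHR element of late cell cycle genes (TTTGAA or TTCGAA) showed the opposite split, with a match in 16.1% of the listed genes' windows, 76.5% of the mitosis windows and 14.3% of tested genes' windows. The NF-Y box CCAAT was in 61.3%, 88.2% and 37.4% of these. A match is a run of letters and not a measured binding site.

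Below are the stretches, from 5 of the 12 genes, with an E2F match upstream of the window's start site that touch no annotated exon. Those of Cdc6 (gene at 98907801 to 98923940) and Uhrf1 (56303321 to 56323486) lie within the annotated gene, downstream of its 5' end. Both precede start sites inside the gene, at 98908151 and 56304313. Each stretch reads along the gene's own strand, and capitals mark the match or overlapping matches.
Mcm5, chr8:75109334-75109389, plus strand: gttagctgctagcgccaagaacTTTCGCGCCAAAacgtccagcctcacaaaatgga
Mcm6, chr1:128359782-128359837, minus strand: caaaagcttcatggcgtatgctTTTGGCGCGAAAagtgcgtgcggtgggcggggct
Mcm6, chr1:128359723-128359774, minus strand: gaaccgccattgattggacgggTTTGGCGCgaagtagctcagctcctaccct
Cdc6, chr11:98907991-98908042, plus strand: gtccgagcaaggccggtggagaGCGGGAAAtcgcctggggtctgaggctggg
Pola1, chrX:93632264-93632315, minus strand: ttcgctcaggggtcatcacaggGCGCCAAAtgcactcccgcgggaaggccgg
Uhrf1, chr17:56304106-56304157, plus strand: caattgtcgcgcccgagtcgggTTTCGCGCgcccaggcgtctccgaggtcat
Mcm5 and the more distal Mcm6 stretch each hold 2 forms of the site facing each other in 12 bases, while Cdc6, Pola1 and Uhrf1 hold a single form.

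The 12 genes with a match had a median log2 fold change of 0.26 (range -0.11 to 0.58), with 10 of 12 positive. The 14 genes with a window and no match had a median of 0.058 (range -0.46 to 0.69), with 7 of 14 positive. Of the 8 genes with an unadjusted edgeR p under 0.05, 5 held a match, where 12 of all 26 genes with a window did. The 3 without a match were E2f1, Tk1 and Rrm1. Whether the genes with and without a match differ was not tested.

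**Figure D2:**
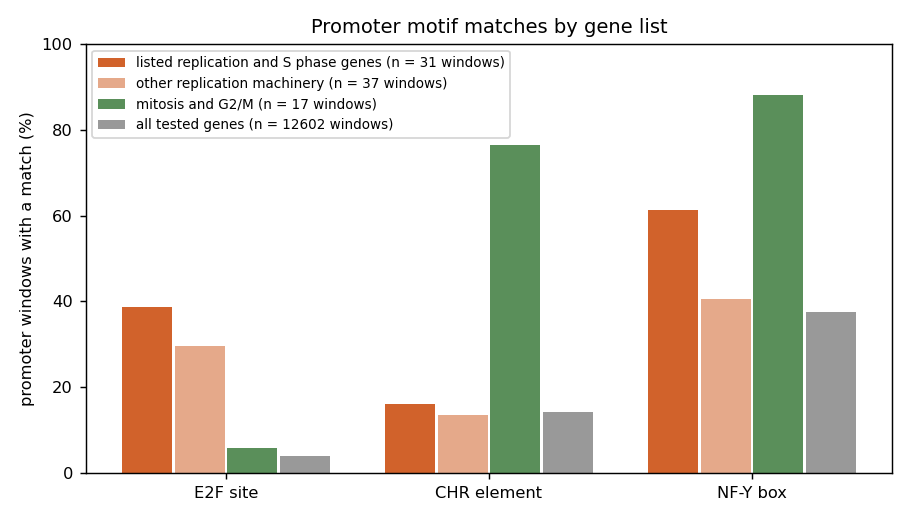
Share of promoter windows (%) with at least 1 match to the E2F site, the CHR element and the NF-Y box, for the listed genes (31 windows), other replication machinery (37), mitosis and G2/M genes (17) and all tested genes (12602). The E2F bars of both replication lists, 38.7% and 29.7%, stand above the 3.9% of all tested genes, and the mitosis list is highest for the CHR element, at 76.5%.

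The genes of G1/S control were all nominally higher in the knockout, with a median log2 fold change of 0.46, and 0 of 4 passed the test. Cdk2 (ENSMUSG00000025358.16; GRCm38 chromosome 10, 128697939 to 128705031, minus strand), the kinase that triggers S phase, was at 120.8 and 132.5 CPM in WT and at 167.6 and 210.0 CPM in the knockout. Both knockout libraries were above both WT libraries, by a log2 fold change of 0.58 (SE 0.151, 95% interval 0.22 to 0.93, edgeR adjusted p = 0.0977). DESeq2 called it (adjusted p = 0.00978).

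E2f1 (ENSMUSG00000027490.17; chromosome 2, 154559407 to 154569892, minus strand) encodes a transcriptional activator of replication genes. It was at 26.5 and 20.1 CPM in WT and at 35.9 and 39.4 CPM in the knockout, again with no overlap. Its fold of 1.61 was the largest of the 31 genes (log2 fold change 0.69, SE 0.237, interval 0.13 to 1.24, edgeR adjusted p = 0.167), and DESeq2 did not call it (adjusted p = 0.121).

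Cyclin E, the partner of CDK2, comes from Ccne1 and Ccne2. Ccne1 was at 57.5 and 50.5 CPM in WT and 69.7 and 67.3 CPM in the knockout (log2 fold change 0.34, edgeR adjusted p = 0.313). Ccne2 was at 43.0 and 76.9 CPM in WT and 73.0 and 60.3 CPM in the knockout, so its WT libraries spanned both knockout libraries. Of the exonic bases of Ccne2, 17.4% also belong to exons of Ints8 on the opposite strand, and the library method, Smart-seq2, does not mark strand.

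Genes that supply nucleotides held the smallest p of the list. Tk1 (ENSMUSG00000025574.13; chromosome 11, 117815526 to 117826092, minus strand) encodes thymidine kinase, which salvages thymidine for DNA. It was at 53.6 and 47.7 CPM in WT and at 77.8 and 83.8 CPM in the knockout, a gap between the genotypes that was wider than the gap within either. This is a log2 fold change of 0.67 (SE 0.167, interval 0.28 to 1.06, edgeR adjusted p = 0.0862; DESeq2 adjusted p = 0.0087).

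Rrm1 and Rrm2 encode the large and the small subunit of ribonucleotide reductase, which makes deoxyribonucleotides. Rrm1 (ENSMUSG00000030978.10; chromosome 7, 102441695 to 102469771, plus strand) was at 312.8 and 328.2 CPM in WT and at 380.3 and 425.3 CPM in the knockout, without overlap. Its log2 fold change was 0.33 (SE 0.106, edgeR adjusted p = 0.144; DESeq2 adjusted p = 0.0408). Rrm2, at 34.8 and 42.4 CPM in WT and 38.6 and 37.3 CPM in the knockout, had knockout values between the WT values (log2 fold change -0.019, interval -0.51 to 0.47; 0.035 with total-count scaling). Per kb of exonic length, Rrm1 averaged 32.8 CPM and Rrm2 13.8 CPM over the 4 libraries. The lengths used were the exon unions, 11012 bases for Rrm1 and 2771 for Rrm2. These differ from the length of the transcript that the cells make, so the 2 levels cannot be read as a subunit ratio. Tyms, for thymidylate synthase, was at 57.9 and 45.3 CPM in WT and 66.6 and 65.5 CPM in the knockout (log2 fold change 0.35, edgeR adjusted p = 0.348).

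Uhrf1 (ENSMUSG00000001228.14; chromosome 17, 56303321 to 56323486, plus strand) encodes the factor that recruits the maintenance DNA methyltransferase to newly copied DNA. It was at 68.4 and 75.3 CPM in WT and at 105.8 and 101.3 CPM in the knockout. The genotypes did not overlap, with a log2 fold change of 0.53 (SE 0.148, interval 0.18 to 0.88, edgeR adjusted p = 0.112; DESeq2 adjusted p = 0.0254). The processed pseudogene Gm5648 matches the Uhrf1 transcript at 98.3% over 1590 bases. It held 1 count over the 4 libraries against 9063 for Uhrf1, and the level of Uhrf1 is uncertain to that extent.

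**Figure D3:**
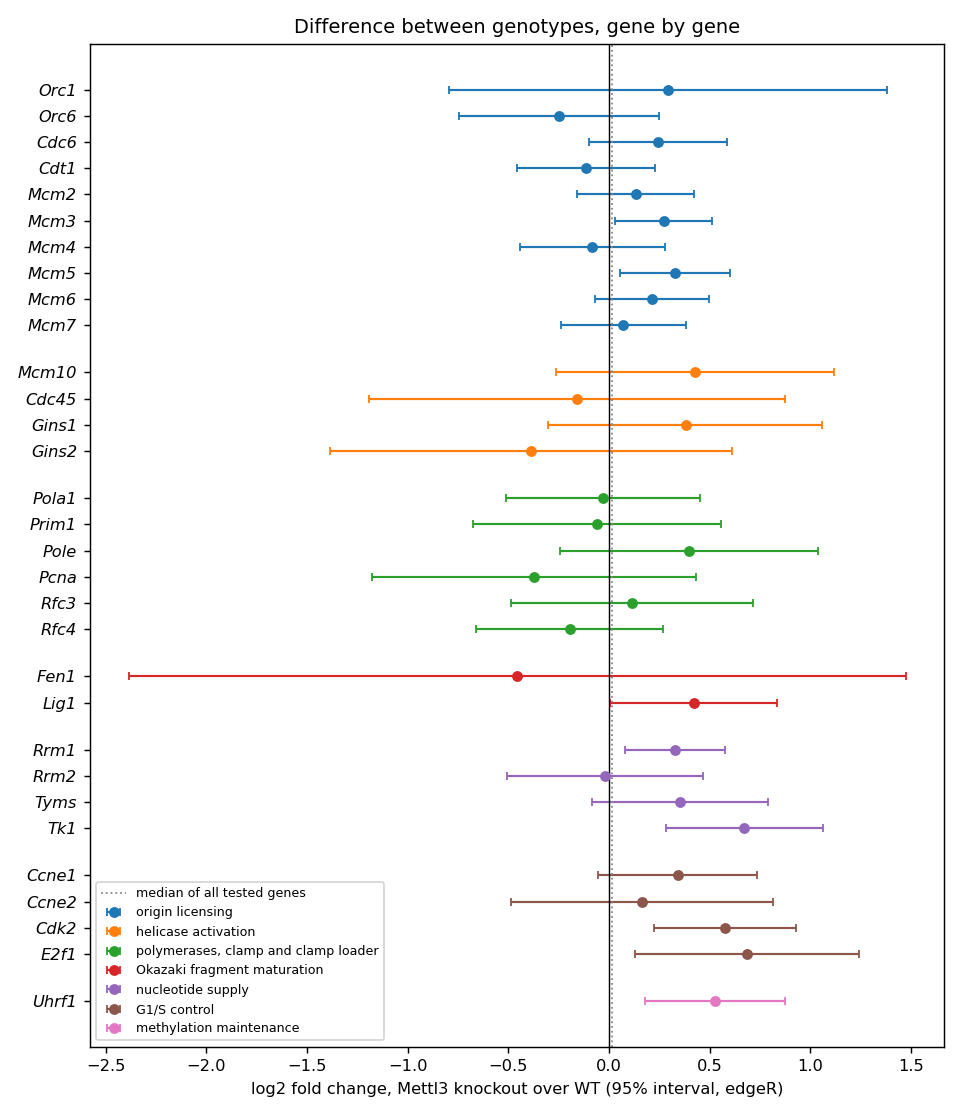
Log2 fold change of each listed gene, Mettl3 knockout over WT, with its 95% interval from edgeR; colours are roles, the solid line is 0 and the dotted line the median of all tested genes. The intervals of 8 genes, those with an unadjusted p under 0.05, lie wholly above 0 (10.5% of all tested genes). None lies wholly below (9.69% of all tested genes). That of Fen1 is the widest, from -2.39 to 1.47.

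Origin licensing genes were 7 positive and 3 negative, with a median log2 fold change of 0.17 and 0 of 10 called. Among them, the MCM helicase is a ring of 6 different subunits, so its genes can be set side by side per kb of exonic length. In each of the 4 libraries the order was the same, from Mcm6 through Mcm3, Mcm5, Mcm2 and Mcm7 to Mcm4.

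Over the 4 libraries the level per kb of Mcm6 was 102.6 to 138.1 CPM and that of Mcm3 83.0 to 107.6 CPM, ranges that overlapped. Mcm5 followed at 58.6 to 82.0 CPM per kb and Mcm2 at 48.2 to 61.0, which also overlapped. Mcm7 at 34.7 to 40.3 CPM per kb and Mcm4 at 26.5 to 32.3 did not overlap each other or Mcm2. The level of Mcm7 is uncertain, since the processed pseudogene Gm5487 matches its transcript at 97.7% over 2157 bases and 12.6% of its exonic bases lie in exons of other genes. These levels depend on the exon union used as length, which differs from the length of the transcript that the cells make.

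Between genotypes, Mcm5 (ENSMUSG00000005410.6) was at 234.1 and 262.9 CPM in WT and 327.5 and 296.3 CPM in the knockout. Mcm3 (ENSMUSG00000041859.10) was at 328.5 and 311.6 CPM in WT and 403.6 and 369.3 CPM in the knockout. Both had higher values in both knockout libraries, with log2 fold changes of 0.33 (SE 0.117) and 0.27 (SE 0.104) that missed the threshold (edgeR adjusted p = 0.175 and 0.198).

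Mcm6 was at 595.6 and 478.8 CPM in WT and 644.3 and 603.8 CPM in the knockout, also without overlap. Mcm2 was at 335.3 and 375.7 CPM in WT and 424.3 and 355.3 CPM in the knockout, and Mcm7 at 162.4 and 153.7 CPM against 178.5 and 153.7 CPM. Mcm4 was at 100.8 and 116.0 CPM in WT and 109.4 and 95.1 CPM in the knockout. The last 3 overlapped, and their log2 fold changes of 0.13, 0.072 and -0.082 each changed sign when 1 library was left out. The widest interval of the 6 subunits was that of Mcm4, from -0.44 to 0.28.

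**Figure D4:**
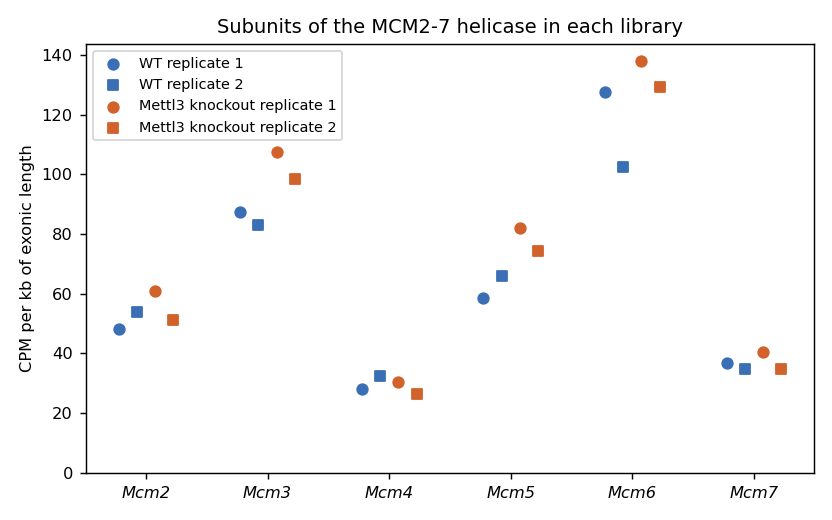
Level of the 6 MCM helicase subunits in each library, in CPM per kb of exonic length; circles are replicate 1, squares replicate 2, blue WT and orange Mettl3 knockout. Mcm6 is highest and Mcm4 lowest in every library.

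The factors that load the helicase differed in sign, and none passed the test. Cdc6, the loading ATPase, was at 81.1 and 90.0 CPM in WT and 104.8 and 97.7 CPM in the knockout (log2 fold change 0.24, edgeR adjusted p = 0.411). Cdt1, its partner in loading, was at 96.3 and 110.3 CPM in WT and 94.9 and 95.9 CPM in the knockout (log2 fold change -0.11). The origin recognition subunit genes Orc1 and Orc6 had log2 fold changes of 0.29 and -0.25, and the libraries of Orc1 spread from 6.94 to 14.4 CPM with the highest and the second lowest value both in the knockout.

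Helicase activation genes were low, at 4.86 to 60.3 CPM, and 0 of 4 passed the test. Mcm10, a factor needed to start unwinding, was at 35.6 and 33.8 CPM in WT and at 33.5 and 60.3 CPM in the knockout. The last value stood alone: without Mettl3 knockout replicate 2 the log2 fold change was -0.058, against 0.43 (SE 0.295, edgeR adjusted p = 0.476) with all libraries. Gins1, a GINS subunit, was at 14.5 and 12.0 CPM in WT and 17.1 and 17.5 CPM in the knockout (log2 fold change 0.38, SE 0.291, edgeR adjusted p = 0.525).

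Gins2, another subunit of the same complex, and Cdc45, the helicase cofactor, had log2 fold changes of -0.39 and -0.16 with wide intervals (-1.38 to 0.61 and -1.19 to 0.87). Of the exonic bases of Gins2, 67.3% also lie in exons of Gse1 on the opposite strand. Its level, 1.19 to 1.65 CPM per kb, is therefore uncertain.

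Polymerase, clamp and clamp loader genes were 2 positive and 4 negative, with a median log2 fold change of -0.044. Their sum, 170.3 and 176.7 CPM in WT and 168.1 and 174 CPM in the knockout, overlapped between the genotypes. Pole, the catalytic subunit of the leading strand polymerase, was at 15.2 and 16.2 CPM in WT and 18.7 and 22.6 CPM in the knockout (log2 fold change 0.40, SE 0.274, edgeR adjusted p = 0.478).

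Pcna, the sliding clamp and a common marker of S phase, was at 16.3 and 11.3 CPM in WT and 10.3 and 11.2 CPM in the knockout. Both knockout libraries lay below both WT libraries, by less than the 2 WT libraries differed from each other (log2 fold change -0.37, SE 0.344, interval -1.18 to 0.43, edgeR adjusted p = 0.609). Leaving out WT replicate 1 gave a log2 fold change of -0.079 for Pcna, and leaving out WT replicate 2 gave -0.61. Pcna averaged 5.11 CPM per kb, below all 6 MCM subunits. The processed pseudogene Pcna-ps2 matches its transcript at 99.2% over 781 bases and held 2 counts over the 4 libraries against 1286 for Pcna. How reads that fit both were counted is not given in the sources used here, so the level of Pcna is uncertain.

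Pola1 and Prim1, the polymerase and primase that start each strand, had log2 fold changes of -0.030 and -0.058, and Rfc3 and Rfc4, subunits of the clamp loader, 0.12 and -0.19. Pola1 was at 0.022 with total-count scaling, and Prim1 and Rfc3 changed sign when WT replicate 1 was left out. Their adjusted p-values ran from 0.651 to 0.959.

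Neither of the 2 Okazaki fragment genes passed the test. Lig1, the ligase that seals the lagging strand, was at 91.5 and 68.7 CPM in WT and at 103.5 and 111.8 CPM in the knockout (log2 fold change 0.42, SE 0.177, interval 0.006 to 0.84, edgeR adjusted p = 0.239). Fen1, the flap nuclease that works just before it, was at 1.64 and 0.756 CPM in WT and 1.01 and 0.762 CPM in the knockout, from 46, 19, 26 and 19 counts. Of the exonic bases of Fen1, 84.2% also lie in exons of Gm10143 or Tmem258 on the opposite strand, so its level is uncertain. Over the whole list, 12 of 31 genes shared some exonic bases with another gene, and in Fen1 and Gins2 the share was above 20%. A near-identical copy elsewhere was found for 6 genes, Cdc6, Mcm7, Pcna, Rrm2, Tyms and Uhrf1, whose levels are uncertain for that reason.

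Among replication genes outside the list, 0 of 39 other genes of the machinery passed the test, 22 were positive, and the median log2 fold change was 0.065. Pold2, a subunit of the lagging strand polymerase, was at 62.2 and 67.6 CPM in WT and 47.8 and 33.7 CPM in the knockout (log2 fold change -0.67, edgeR adjusted p = 0.143). Ticrr, which brings CDC45 to origins, was at 11.3 and 7.92 CPM in WT and 17.6 and 21.1 CPM in the knockout (log2 fold change 0.99, edgeR adjusted p = 0.151). Both missed the threshold, in opposite directions.

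Nucleotide metabolism held the 2 called genes of the replication lists. Of 12 other genes that supply or remove nucleotides, 1 was called higher and 1 lower, with a median of -0.042. Samhd1, which degrades deoxyribonucleotides, fell by 0.85 on the log2 scale, from 134.1 and 131.2 CPM in WT to 71.9 and 75.4 CPM in the knockout (SE 0.138, edgeR adjusted p = 0.0287). Umps, which completes uridine monophosphate synthesis, rose 1.67-fold, from 107.7 and 107.4 to 170.2 and 188.6 CPM (edgeR adjusted p = 0.0364). Neither passed when any 1 library was left out (edgeR adjusted p 0.092 to 0.194 for Samhd1 and 0.113 to 0.239 for Umps), nor with a replicate block (0.115 and 0.125), and Umps did not without the filter (0.051).

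Of 10 genes that rebuild chromatin behind the fork, 0 passed. Nasp, a histone chaperone, was at 131.2 and 111.7 CPM in WT and 89.1 and 88.0 CPM in the knockout (log2 fold change -0.46, edgeR adjusted p = 0.147). Chaf1a, the large subunit of chromatin assembly factor, was at 53.6 and 59.6 CPM in WT and 79.8 and 75.8 CPM in the knockout (log2 fold change 0.46, edgeR adjusted p = 0.172).

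Upstream regulators of S phase entry did not pass the test, with 0 of 14 other activators and 0 of 15 tested inhibitors called, and medians of 0.093 and 0.15. Ccnd1, for cyclin D1, was at 3.56 and 2.15 CPM in WT and 11.3 and 12.6 CPM in the knockout (log2 fold change 2.05, SE 0.451, edgeR adjusted p = 0.0634). Ccnd2, the far more abundant cyclin D2 gene, was at 964 and 1098 CPM in WT and 805.8 and 726.1 CPM in the knockout (log2 fold change -0.43, SE 0.1, edgeR adjusted p = 0.0734). The genotypes did not overlap for either gene. DESeq2 called both (adjusted p = 0.00497 and 0.00338), and both passed at 5 CPM in 2 libraries (edgeR adjusted p = 0.0329 and 0.0338). Neither passed with limma voom (adjusted p = 0.0756 and 0.07), without the filter (edgeR adjusted p = 0.0844 and 0.0995) or under total-count or RLE scaling. With 1 library left out, the log2 fold change ran from 1.745 to 2.464 for Ccnd1 and from -0.53 to -0.335 for Ccnd2.

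Cdkn1a, for the CDK inhibitor p21, was at 0.142 and 0.438 CPM in WT, from 4 and 11 counts, and at 5.25 and 2.77 CPM in the knockout (log2 fold change 3.81, SE 0.915, edgeR adjusted p = 0.0635). DESeq2 called it (adjusted p = 0.011) and limma voom did not (adjusted p = 0.216), and its log2 fold change ran from 3.18 without WT replicate 1 to 4.77 without WT replicate 2. Rb1, the retinoblastoma gene that restrains E2F, was at 53.5 and 57.8 CPM in WT and 82.5 and 72.0 CPM in the knockout (log2 fold change 0.47, edgeR adjusted p = 0.174). Cdkn1b, for p27, overlapped between the genotypes (log2 fold change -0.18, edgeR adjusted p = 0.722).

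Mitosis and G2/M genes had 1 of 21 called. Mki67, the general marker of cycling cells, rose 1.81-fold, from 84.2 and 73.2 CPM in WT to 128.2 and 157.7 CPM in the knockout (SE of the log2 fold change 0.164, edgeR adjusted p = 0.0463). It did not pass when any 1 library was left out (edgeR adjusted p 0.115 to 0.272), with limma voom (0.0517), no filter (0.0643), a replicate block (0.153) or the gene-length trend removed (0.06). The list was 17 positive and 4 negative, with a median log2 fold change of 0.30. Top2a, the topoisomerase that untangles copied chromosomes, was at 186.8 and 221.5 CPM in WT and 252.0 and 294.4 CPM in the knockout (log2 fold change 0.42, edgeR adjusted p = 0.149). Ccna2, for the cyclin of S and G2, was at 30.0 and 24.2 CPM in WT and 27.5 and 27.8 CPM in the knockout (log2 fold change 0.024). Whether the mitosis list and the listed replication genes differ was not tested.

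**Figure D5:**
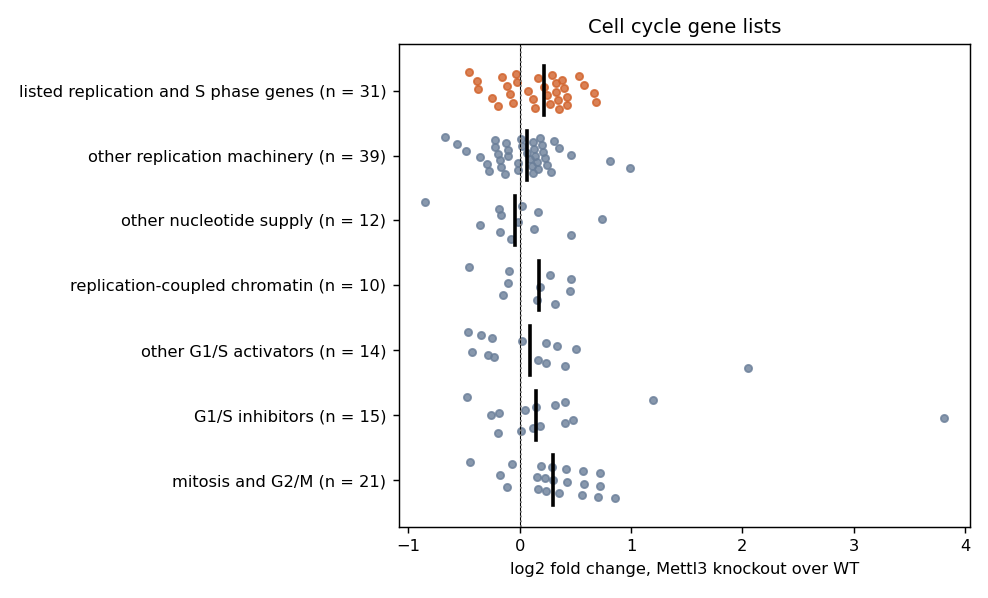
Log2 fold change, Mettl3 knockout over WT, of every tested gene of the 7 cell cycle lists; each point is a gene (vertical spread only separates points), black bars are medians and the dotted line is the median of all tested genes. The medians of the listed genes (0.22) and of the mitosis genes (0.30) lie furthest from it, and the point at 3.81 is Cdkn1a.

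Markers of other cells also differed between the libraries. The 10 markers of CD4+CD8+ thymocytes, cells that include dividing precursors, summed to 864.2 and 1021 CPM in WT and 1427 and 1295 CPM in the knockout, with 9 of 10 log2 fold changes positive and 0 called. MHC class II genes summed to 92.3 and 221.3 CPM in WT and 2088 and 2215 CPM in the knockout. All 5 log2 fold changes were positive, and 4 were called higher. The 11 markers of dendritic cells and macrophages summed to 44.8 and 70.3 CPM against 428.2 and 489 CPM. Of the 9 tested, 7 had positive log2 fold changes and 4 were called higher. Most of that sum was Lyz2, at 29.6 and 47.5 CPM in WT and 324.6 and 385.6 CPM in the knockout, while Cst3 and C1qa had log2 fold changes of -0.65 and -0.14 (edgeR adjusted p = 0.469 and 0.901). The 6 B cell markers summed to 7.51 and 16.4 CPM in WT and 31.9 and 24.8 CPM in the knockout, with Pax5 at 0 in all 4 libraries, 5 of 5 tested log2 fold changes positive (median 1.23) and 0 called. The 7 erythroid markers summed to 3.31 and 0.955 CPM in WT and 7.31 and 9.07 CPM in the knockout, with 3 of 3 tested positive (median 1.90) and 0 called. The part of these cells in the differences of replication genes was not tested.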

How the data were processed

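RNA was measured in 4 libraries, 2 from each genotype, grouped and numbered from the sample labels. The authors deposited raw read counts, whole numbers for 53715 Ensembl gene IDs. FastQC 0.11.5, STAR 2.6.0a, HTSeq 0.6.1, DESeq2 1.18.1 and the mm10 build are named, per the submitters' processing notes, without their roles. The sources used here do not state the annotation release, strand setting or filters. IDs were matched to GENCODE M21 of GRCm38, and each of the 31 genes stood on 1 ID.

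Genes were kept by filterByExpr, scaled by TMM (factors 0.97 to 1.02) and tested two-sided in R 4.3.3 with edgeR 4.0.16 (glmQLFit with robust=TRUE and legacy=FALSE, glmQLFTest, 2 residual degrees of freedom). P-values were adjusted by Benjamini-Hochberg over all tested genes, with 0.05 as the threshold. Alternatives were total-count and RLE scaling, DESeq2 1.42.0, limma 3.58.1 voom, no filter, 5 CPM in 2 libraries, each library left out, a replicate block and, chosen after seeing the data, removal of the trend with gene length. Replicates were not duplicates of 1 library: chi-square over its degrees of freedom was 45.6 between the WT libraries and 28 between those of the knockout. Libraries totalled 24374587 to 28316016 counts, and intervals cover counting and library error only.

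The listed genes, the other lists and the tests were chosen with earlier results of these data known. Library values were given for genes past the threshold, for the 2 of each role with the smallest p and for the 6 helicase subunits, and also, outside that rule and after their values were seen, for Orc1, Cdc6, Cdt1, Rrm2, Tyms, Ccne1 and Ccne2. From each other list the text names the genes past the threshold, or else the 2 with the smallest p, and in addition Mettl3, Mki67, Top2a, Ccna2, Cdkn1a and Cdkn1b. Single markers of other cell types were named after their values were seen. Levels per kb divide by the union of a gene's exons. Copies elsewhere were sought with blastn among GENCODE transcripts at 95% identity or more over at least 300 bases. Promoter windows and sequences are RefSeq's on GRCm38.p6.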

Additional observations from a re-analysis of the deposited data

How the results depend on the processing

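Fen1 had the fewest counts of the listed genes, 19 to 46 a library, followed by Gins2 with 121 to 190 and Cdc45 with 127 to 197, and Mcm6 had the most, up to 16746. No listed gene was called under total-count or RLE scaling, limma voom, no filter, 5 CPM in 2 libraries (where Fen1 was not tested), the gene-length correction (chosen after seeing the data) or with any library left out. The lowest adjusted p among these was 0.0505, for Tk1 at 5 CPM in 2 libraries. DESeq2 called 4, and the cause was not tested. The median of the listed genes was 0.267 with total-count scaling, which moved the median of all tested genes from 0.0163 to 0.0697, and 0.16 to 0.242 with 1 library left out. With total-count scaling Pola1 was at 0.022 and Rrm2 at 0.035. Over all genes, 1333 were called by DESeq2, 727 at 5 CPM in 2 libraries, where fewer genes were tested, and 41 to 172 with 1 library left out, where fewer samples were fitted. Mitosis and G2/M genes called numbered 2 with total-count scaling and at 5 CPM in 2 libraries, 3 with DESeq2, and 0 with limma voom, no filter, the gene-length correction or any library left out.

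With 1 library left out, the log2 fold changes of 14 genes changed sign, out of 46 genes followed over these settings. The 46 were the 31 listed genes and named genes of the other lists, and of the 14, Ccna2 and Cdkn1b are not listed genes. Their ranges were -0.32 to 0.73 for Orc1, -0.002 to 0.25 for Mcm2, -0.19 to 0.018 for Mcm4, -0.041 to 0.17 for Mcm7, -0.058 to 0.80 for Mcm10, -0.36 to 0.019 for Cdc45 and -0.16 to 0.079 for Pola1. Those of Prim1 were -0.34 to 0.18, of Rfc3 -0.19 to 0.45, of Fen1 -0.88 to 0.22, of Rrm2 -0.17 to 0.12, of Ccne2 -0.22 to 0.63, of Ccna2 -0.12 to 0.18 and of Cdkn1b -0.43 to 0.027.

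The labels number the libraries 1 and 2 in both genotypes and say nothing of a shared litter or day. Deviations of same-numbered libraries from their genotype means had a correlation of -0.0125 over 14185 genes, so the numbers were not taken as pairs. A replicate block left 33 genes called over the whole table, 0 mitosis and G2/M genes and 0 listed genes.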
